A study of Mus musculus with 30 samples.

Results

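A set of 10 genes of the dendritic cell maturation programme, Mxd1, Il12b, Il15, Socs2, Il4i1, Fscn1, Cacnb3, Apol7c, Serpinb6b and Nudt17, was followed through single-cell RNA-seq of mouse spleen. They were chosen by symbol, with earlier results of these data known, and all 10 were found among the 32285 annotated genes of each library. Shares over all genes are given beside them below as description, since the choice was not independent of these data. Conventional dendritic cells (cDC) take up antigen and fall into 2 subsets, cDC1 and cDC2. On maturation both subsets switch on a shared programme: they rearrange their actin, follow CCR7 ligands to T cell zones, present antigen with costimulatory molecules and secrete cytokines. The genes above belong to that programme by their known expression, and they encode a transcriptional repressor, cytokines, a regulator of cytokine signalling, enzymes, cytoskeletal and channel proteins, an apolipoprotein L and a protease inhibitor.

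The series compares Smc3-cKO with Smc3-WT mice, all 6 to 8 weeks old, and asks how cohesin, the ring complex to which SMC3 belongs, takes part in gene expression in dendritic cells. Red-blood-cell-depleted splenocytes were profiled with a Chromium 3′ kit, with 2 libraries from Smc3-cKO and 2 from Smc3-WT spleens; whether each library is 1 mouse or a pool is not given in the sources used here. How the conditional deletion is driven, its allele and the cell types that carry it are likewise not given there, so how completely a cDC of the Smc3-cKO spleen lacks SMC3 is unknown. The other 26 samples of the series were not analysed here. Since the labels do not say that libraries come from separate animals, p-values measure the spread between these libraries only, which may be technical.

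The Smc3-cKO libraries held 40367056 and 46678046 unique molecular identifiers (UMIs, 1 per captured RNA molecule) in 9074 and 14122 cell barcodes, and the Smc3-WT libraries 51299056 and 48970568 UMIs in 16096 and 14352 barcodes. Any 2 libraries shared between 36 and 61 barcodes. After filtering, 6850 and 12704 cells of the Smc3-cKO libraries and 12100 and 13149 cells of the Smc3-WT libraries remained. The libraries numbered 1 stood apart in both genotypes. Median mitochondrial shares were 5.64% in Smc3-cKO library 1 and 7.51% in Smc3-WT library 1, against 3.97% and 3.25% in the libraries numbered 2. Erythroid marker RNA in the mature cDC gate was 2140 CPM (a gene's UMIs scaled to the same total in every gate) in Smc3-cKO library 1 and 0 CPM in Smc3-cKO library 2, beside 2334 CPM in Smc3-WT library 1 and 33.3 CPM in Smc3-WT library 2. Below, each pair of values gives library 1 and then library 2 of a genotype, and values with each library left out are given beside the results that rest on it.

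The Smc3 transcript did not mark the genotype. In all gated cDC it stood at 134 and 128 CPM in the Smc3-cKO libraries, against 69.3 and 88.6 CPM in the Smc3-WT libraries. The libraries labelled Smc3-cKO were thus the higher ones, and the groups did not overlap. The log2 difference was 0.64 (SE 0.28), with an adjusted p of 0.553 in edgeR's quasi-likelihood test. In B cells the values were 102 and 111 CPM in the Smc3-cKO libraries and 113 and 108 CPM in the Smc3-WT libraries, which overlap. Tags at the 3′ end do not read which exons are missing, so this measurement checks neither the deletion nor the labels.

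Cells were assigned by marker RNA, without any of the 10 genes. The mature cDC gate, which rests on 20 markers such as Ccr7 and Relb, took 14 and 12 cells of the Smc3-cKO libraries and 53 and 33 cells of the Smc3-WT libraries. The cDC1 gate took 33 and 15 cells from Smc3-cKO and 42 and 52 from Smc3-WT, and the cDC2 gate took 54 and 125 from Smc3-cKO and 68 and 131 from Smc3-WT. In the mature gate the 20 markers summed to 9506 and 11077 CPM in Smc3-cKO and to 11927 and 15454 CPM in Smc3-WT, with 18 to 20 of the 20 detected. In cDC1 the same sum lay between 490 and 962 CPM, and in cDC2 between 802 and 1665 CPM. Within the mature gate Ccr7, the homing receptor, had 456 and 218 CPM in Smc3-cKO and 381 and 379 CPM in Smc3-WT. The cDC factor Zbtb46 had 140 and 81.8 CPM in Smc3-cKO mature cells, against 485 and 433 CPM in Smc3-WT mature cells. The whole list of 16 pan-cDC markers went the other way, with 18504 and 17366 CPM in Smc3-cKO mature cells and 12794 and 16565 CPM in Smc3-WT mature cells. That list includes genes of MHC class II presentation, which B cells share. The gates used 10 of the 16, without those genes, and a sum over the 10 is not given here. RNA of other cells was also present. The 11 B cell markers summed to 281 and 164 CPM in Smc3-cKO mature cells and to 712 and 326 CPM in Smc3-WT mature cells, while Cd3e, Ncr1 and Siglech were at 0 in both Smc3-cKO libraries and at most 15.4 CPM in Smc3-WT. The 13 pDC markers summed to 1087 and 1473 CPM in Smc3-cKO mature cells (7 and 8 detected) and to 1051 and 925 CPM in Smc3-WT mature cells (9 detected in each). The 8 nonclassical monocyte markers summed to 456 and 437 CPM in Smc3-cKO mature cells and to 146 and 299 CPM in Smc3-WT mature cells. The B cell list was thus lower in Smc3-cKO, and the pDC and nonclassical monocyte lists were higher, each without overlap. Their part in the results was not tested, apart from a gate with stricter limits on B, T and NK markers given below. Of the 112 mature cells, 80 fell in clusters of mature cDC, 13 in cDC2 clusters and 19 elsewhere. Of the 142 cDC1, 83 fell in cDC1 clusters, 3 in cDC2 clusters and 56 elsewhere. A cluster with a median of 856.5 UMIs held 12 and 2 of the Smc3-cKO cDC1 and 18 and 21 of the Smc3-WT cDC1.

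Promoters of 8 of the 10 genes were found in the RefSeq table for GRCm38.p6, 9 promoters in all. A motif of the CTCF type, CCA, any 2 bases, AG, any 2 bases and GGC, was searched because CTCF halts cohesin on chromatin; its letters were chosen after the sequences had been seen. Counting both strands and the 250 bases before the start, it occurred in 2 of the 9 promoters, those of Serpinb6b and Nudt17, and in 2.07% of 32851 promoters. A motif of the NF-kB type, GGG, any 5 bases and CC, occurred in 7 of the 9 and in 45.8% of all promoters, and a motif of the PU.1 type, GAGGAA, in 3 of the 9 and in 23.3% of all. Matches of the NF-kB type on opposite strands overlap each other in Mxd1, Il4i1, Nudt17 and 1 of the Cacnb3 promoters. The 4 promoters below belong to Mxd1 and Apol7c, the genes on which the genotype comparison turns, with NF-kB type matches in capitals, and to Serpinb6b and Nudt17, with the CTCF type match in capitals. A match describes the letters only and is not a binding site.
Mxd1, chr6:86669160-86669409, minus strand: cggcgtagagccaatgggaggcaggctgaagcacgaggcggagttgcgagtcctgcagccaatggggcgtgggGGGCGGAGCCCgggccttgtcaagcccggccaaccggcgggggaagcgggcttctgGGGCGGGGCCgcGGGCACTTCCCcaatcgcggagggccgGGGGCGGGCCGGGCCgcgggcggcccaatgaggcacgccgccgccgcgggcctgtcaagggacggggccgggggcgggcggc
Apol7c, chr15:77533316-77533565, minus strand: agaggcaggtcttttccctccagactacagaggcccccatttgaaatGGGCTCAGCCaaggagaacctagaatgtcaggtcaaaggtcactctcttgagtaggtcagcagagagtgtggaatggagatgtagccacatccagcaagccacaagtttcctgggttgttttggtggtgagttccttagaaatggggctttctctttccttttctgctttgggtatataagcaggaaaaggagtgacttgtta
Serpinb6b, chr13:32965011-32965260, plus strand: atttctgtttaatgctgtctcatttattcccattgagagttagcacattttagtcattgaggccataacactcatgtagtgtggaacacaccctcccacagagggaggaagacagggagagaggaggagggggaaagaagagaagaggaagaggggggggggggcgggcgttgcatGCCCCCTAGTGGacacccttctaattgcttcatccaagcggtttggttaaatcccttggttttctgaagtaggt
Nudt17, chr3:96708561-96708810, minus strand: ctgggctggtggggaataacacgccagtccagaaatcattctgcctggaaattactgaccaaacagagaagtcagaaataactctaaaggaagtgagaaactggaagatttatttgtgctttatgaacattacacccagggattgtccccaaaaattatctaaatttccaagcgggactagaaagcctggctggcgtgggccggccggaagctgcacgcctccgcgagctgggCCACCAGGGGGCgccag
The Mxd1 promoter holds 7 matches of the NF-kB type, with a GC content of 78.4%, and the Apol7c promoter holds 1. The CTCF type match ends 6 bases before the start in Nudt17, on the gene's own strand, and lies 74 to 63 bases before it in Serpinb6b, on the opposite strand.

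Levels were read over 12 classes with at least 10 cells in each library, a minimum set after the data were seen. The planned minimum of 20 leaves out mature cDC and cDC1. Of the 10 genes, 7 had their highest median level over the 4 libraries in mature cDC. This is a description of the gates and carries no test. Basophils, too few for this minimum, had medians of 305 CPM for Mxd1 and 293 CPM for Il15. By the mean of per-cell CPM with basophils included, Il15 was highest in basophils and Serpinb6b in mature cDC. Fscn1, the actin bundler of dendrites, had a median of 691 CPM in mature cDC and of 8.58 CPM in cDC2, its next class. Cacnb3, a beta subunit of voltage-gated calcium channels, had 226 CPM in mature cDC and under 1 CPM in every other class's median. Socs2, an inhibitor of cytokine receptor signalling, had 293 CPM in mature cDC and 19.1 CPM in macrophages, its next class. For Nudt17, a nudix hydrolase, the median was 32.0 CPM in mature cDC, and for Il12b, the subunit shared by IL-12 and IL-23, it was 33.8 CPM. In every other class the medians of both were at most 0.17 CPM. For these 5 genes the lowest mature cDC library lay above the highest library of the next class, except for Il12b, which was at 0 in Smc3-cKO library 1.

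Apol7c and Il4i1 were also highest in mature cDC but extended further. Apol7c, an apolipoprotein L family member that in mouse cDC1 is recruited to phagosomes, had a median of 955 CPM in mature cDC, 207 CPM in cDC1 and at most 11.8 CPM elsewhere. Over both genotypes its mature cDC libraries, 351 to 1404 CPM, and cDC1 libraries, 0 to 486 CPM, overlapped. Within a genotype they did not. In Smc3-WT the ranges were 724 to 1404 CPM in mature cDC and 319 to 486 CPM in cDC1. In Smc3-cKO they were 351 to 1187 CPM and 0 to 95.4 CPM. Il4i1, a secreted oxidase of aromatic amino acids, had 428 CPM in mature cDC and 55.6 CPM in B cells.

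The other 3 genes were shared with cells outside the dendritic lineage. Mxd1 pairs with MAX and opposes MYC. Its median was 504 CPM in neutrophils, 301 CPM in mature cDC and 88.0 CPM in NK cells. Neutrophils and mature cDC overlapped over the libraries, and their order differed by genotype. The Smc3-WT means were 526 CPM in mature cDC and 397 CPM in neutrophils, with overlapping libraries. The Smc3-cKO means were 126 CPM in mature cDC and 559 CPM in neutrophils. Il15, the cytokine presented to NK and CD8 T cells, had 383 CPM in macrophages and 349 CPM in mature cDC, with overlapping ranges of 310 to 492 and 298 to 433 CPM. Serpinb6b, an intracellular serine protease inhibitor, had 183 CPM in NK cells, 88.6 CPM in cDC1 and 86.1 CPM in mature cDC, and all 3 ranges overlapped. Serpinb6b and Apol7c belong to families of similar genes, so their reads may be divided with close copies.

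**Figure D1:**
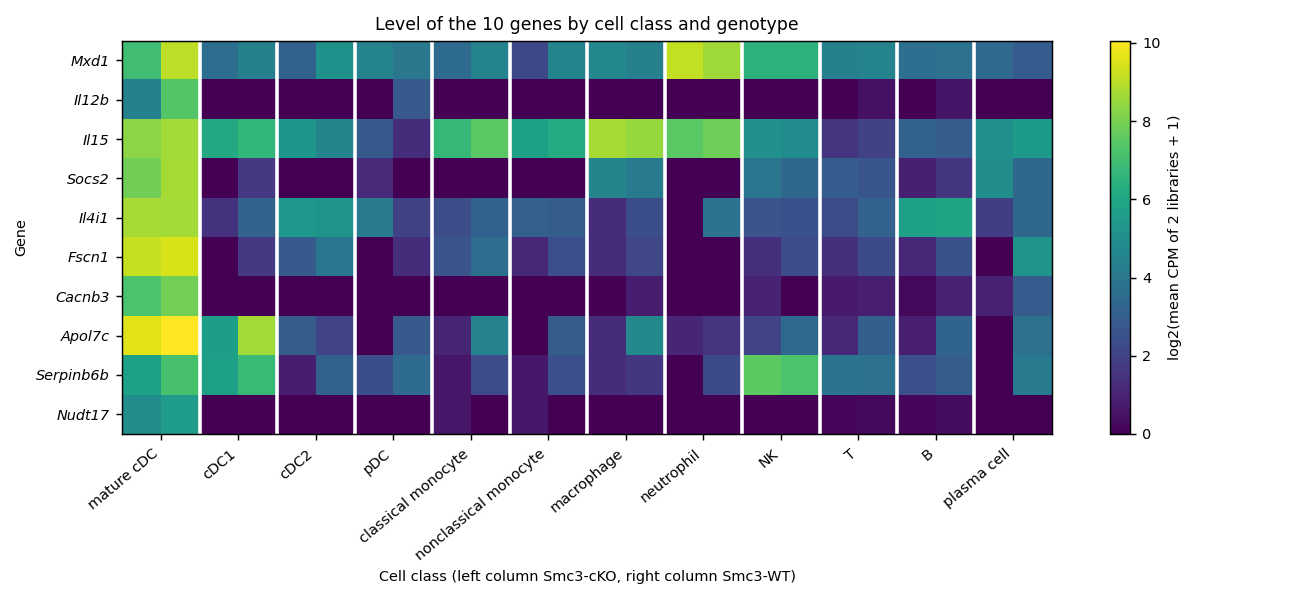
Heat map of the 10 genes (down) in 12 gated cell classes (across), coloured by log2 of the mean CPM of 2 libraries plus 1, with the left column of each class for Smc3-cKO and the right column for Smc3-WT. Fscn1, Socs2, Cacnb3 and Nudt17 are brightest in mature cDC, while Mxd1 is also bright in neutrophils, Il15 in macrophages and Serpinb6b in NK cells.

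By the likeness of these class patterns, Fscn1 was closest to H2-M2 (Pearson r 0.989), Serpinb6b to Serpinb9 (0.940), Apol7c to Mab21l3 (0.974), Il4i1 to H2-Eb2 (0.982) and Mxd1 to Plscr1 (0.898). The measure is the correlation of log2(CPM + 5) over 12 class means and 6688 genes, and classes share libraries and depth. Classes with at least 10 cells in each library were used, a minimum set after the data were seen because the planned minimum of 20 leaves out mature cDC and cDC1. Under the planned minimum, over 10 classes, Il4i1 was again closest to H2-Eb2 (0.990) and Mxd1 to Plscr1 (0.934). Fscn1 was then closest to Tmem176a (0.895), Apol7c to Asrgl1 (0.873) and Serpinb6b to Klra7 (0.981).

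In the sum of all gated cDC, each of the 10 genes was lower in both Smc3-cKO libraries than in both Smc3-WT libraries by unscaled CPM. By scaled CPM this held for 20.9% of the 8418 genes tested, among them all 8 genes of the set that were tested. Il12b and Nudt17 were not tested. Il12b had 0 and 3.32 CPM in Smc3-cKO (0 and 3 UMIs) and 97.8 and 3.69 CPM in Smc3-WT (79 and 4 UMIs). The 10 genes were not chosen independently of these data, so the figures stand side by side without a test. Mxd1 had 15.5 and 22.1 CPM in Smc3-cKO, against 163 and 105 CPM in Smc3-WT. Socs2 had 21.2 and 16.6 CPM in Smc3-cKO and 105 and 69.2 CPM in Smc3-WT. Apol7c had 31.1 and 115 CPM in Smc3-cKO and 324 and 323 CPM in Smc3-WT. Il15, whose groups came closest as a ratio, had 89.0 and 52.0 CPM in Smc3-cKO and 165 and 89.5 CPM in Smc3-WT.

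Of the 10 genes, 8 had enough UMIs for the test over all genes, and their median log2 difference was -2.17, against -0.00 over all genes. Mxd1 fell in Smc3-cKO, by 2.88 on the log2 scale (SE 0.36, edgeR adjusted p 0.0317), and was the 1 gene of the 8 past an adjusted p of 0.05, where 0.226% of all genes were called and 0.214% called lower. DESeq2 called 4 of the 8, but it also called more genes than edgeR over all genes. Both counts over all genes are given in the last section. Socs2 had a log2 difference of -2.28 (SE 0.37, edgeR adjusted p 0.0577) and Serpinb6b one of -2.14 (SE 0.38, adjusted p 0.0663). Apol7c (-2.20), Cacnb3 (-2.26), Fscn1 (-1.78), Il15 (-0.93) and Il4i1 (-0.80) had edgeR adjusted p-values between 0.131 and 0.506. The Mxd1 difference kept its direction in all 16 alternatives, between -3.19 and -2.37, and its call in 9 of them. The call was lost without Smc3-cKO library 1 (adjusted p 0.189) and without Smc3-cKO library 2 (0.0839), and under 5 other choices of cells, with adjusted p-values between 0.0526 and 0.134.

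The gated cDC of the genotypes differed in their make-up, which moves such sums. Mature cells gave 8.05% and 8.12% of the gated UMIs in Smc3-cKO, against 32.1% and 13.9% in Smc3-WT. Levels were therefore also computed at fixed class weights, the same for every library: mature cDC 15.4%, cDC1 25.9% and cDC2 58.7%. At these weights Mxd1, Socs2 and Serpinb6b were lower in both Smc3-cKO libraries than in both Smc3-WT libraries, 3 of the 10 genes, against 16.1% of 8418 genes. The median log2 ratio of the genotype means over the 10 genes was -0.76 at fixed weights, against -2.12 in the sums. Some gate markers were themselves called by edgeR. Cd8a was lower in Smc3-cKO cDC1 (-2.82, adjusted p 0.0165), and Cd4 (-2.98, 0.0488) and the pan-cDC marker Ffar2 (-2.02, 0.0282) in Smc3-cKO cDC2. Ccr2, on the classical monocyte list that excludes cells, was higher over all gated cDC (1.90, 0.0490). How far this changed which cells were gated was not tested.

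The genes separated at fixed weights. Mxd1 had 20.4 and 33.2 CPM in Smc3-cKO and 97.4 and 114 CPM in Smc3-WT, a log2 ratio of means of -1.98, against -2.83 in the sums. Serpinb6b had 11.8 and 31.5 CPM in Smc3-cKO and 45.4 and 62.8 CPM in Smc3-WT, a log2 ratio of -1.32. Socs2 had 40.6 and 31.6 CPM in Smc3-cKO and 51.0 and 77.0 CPM in Smc3-WT, a log2 ratio of -0.83. For Fscn1, Il15 and Il4i1 the log2 ratios at fixed weights were -0.35, -0.20 and 0.08, with overlapping groups. Il4i1 had 75.7 and 105 CPM in Smc3-cKO and 65.8 and 105 CPM in Smc3-WT. Which genes did not overlap depended on the cells used. Socs2 and Mxd1 were among them under every other choice of cells tried. With a library left out they had to remain among them, so those settings could not have shown otherwise.

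**Figure D2:**
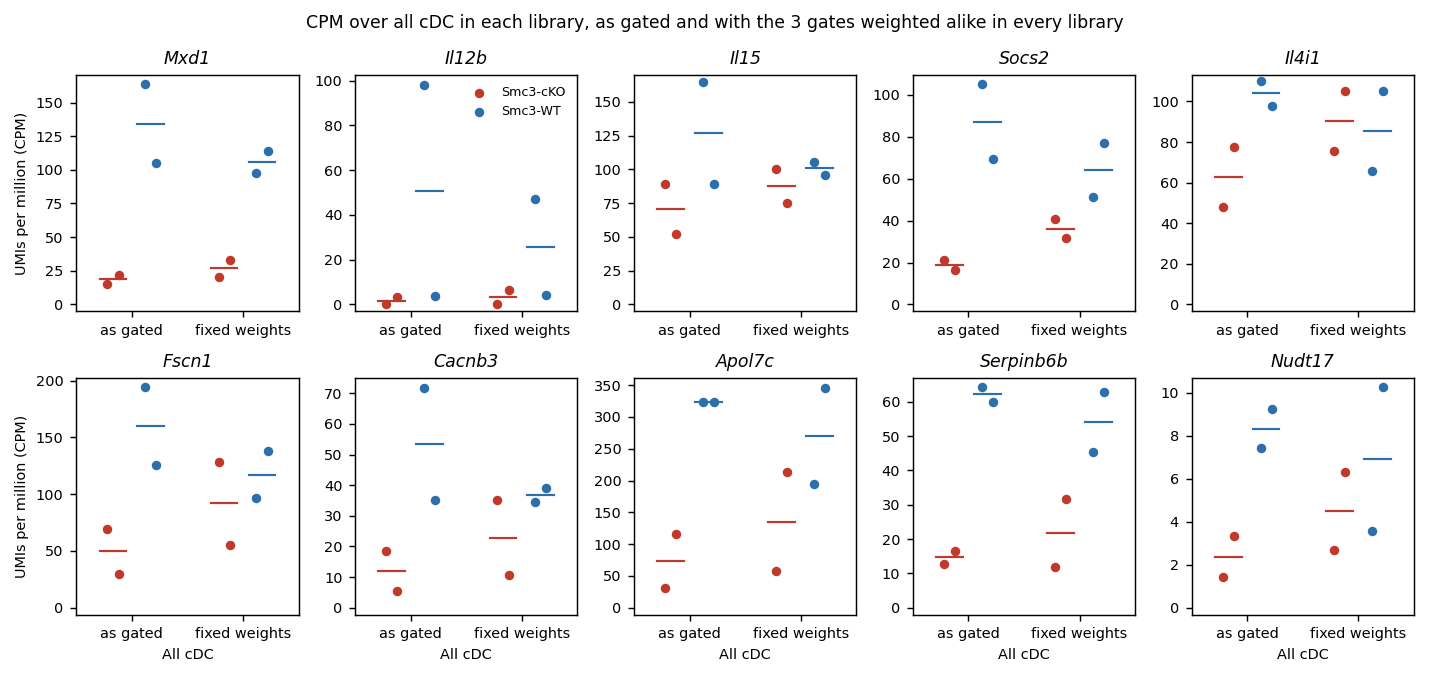
CPM of each gene over all gated cDC, as gated and at fixed class weights, with 1 point per library, a bar at the mean of 2 libraries and Smc3-cKO left of Smc3-WT. As gated, both Smc3-cKO points lie below both Smc3-WT points for 10 of 10 genes; at fixed weights they do so for Socs2, Serpinb6b and Mxd1.

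Within mature cDC, Mxd1 again had the lowest Smc3-cKO level relative to Smc3-WT among the genes tested. It had 87.7 and 164 CPM in Smc3-cKO mature cells (5 and 12 UMIs), against 439 and 612 CPM in Smc3-WT mature cells (114 and 92 UMIs). Both Smc3-cKO libraries lay below both Smc3-WT libraries. The log2 difference was -2.08 (SE 0.46, unadjusted p 0.00081), and the edgeR adjusted p of 0.0653 missed the threshold. It was below 0 in all 16 alternatives, between -2.70 and -1.80, with adjusted p-values between 0.00217 and 0.592. It passed in 3 of them, among them the one without Smc3-WT library 1 (0.00286). With the stricter limits on B, T and NK markers the log2 difference was -2.14 (adjusted p 0.0668).

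Cell by cell, at least 1 Mxd1 UMI was found in 2 of 14 and 6 of 12 Smc3-cKO mature cells and in 32 of 53 and 23 of 33 Smc3-WT mature cells. The exact 95% intervals of these shares are 1.78 to 42.8% and 21.1 to 78.9% in Smc3-cKO. In Smc3-WT the shares are 60.4% (46.0 to 73.5%) and 69.7% (51.3 to 84.4%). With each cell thinned to 1500 UMIs, which left out 5 and 1 Smc3-cKO cells and 5 and 3 Smc3-WT cells, the shares were 22.2% and 18.2% in Smc3-cKO and 39.6% and 53.3% in Smc3-WT. In thinned B cells they were 2.03% and 1.42% in Smc3-cKO and 2.11% and 1.74% in Smc3-WT, so the mature cell shares stood above the level in cells with little Mxd1. Median depth was 3700 and 5239 UMIs in Smc3-cKO mature cells, 4580 and 4282 in Smc3-WT mature cells, 4206 and 2539 in Smc3-cKO B cells and 2749 and 2622 in Smc3-WT B cells. Intervals here cover counting error only. Among mature cells with more cDC2 than cDC1 markers, Mxd1 had 54.6 and 92.5 CPM in Smc3-cKO (12 and 7 cells), against 366 and 653 CPM in Smc3-WT (33 and 27 cells).

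The cytokine genes divided. Il15 had 298 and 327 CPM in Smc3-cKO mature cells, against 370 and 433 CPM in Smc3-WT mature cells. The groups did not overlap, but the log2 difference of -0.41 (SE 0.37, edgeR adjusted p 0.824) was close to its error. Il12b was below the count filter. It had 0 and 40.9 CPM in Smc3-cKO mature cells (0 and 3 UMIs) and 304 and 26.6 CPM in Smc3-WT mature cells (79 and 4 UMIs). The groups overlapped, and 64 of the 79 UMIs in Smc3-WT library 1 came from 1 cell. Il12b UMIs were found in 0 of 14 and 1 of 12 Smc3-cKO mature cells and in 7 of 53 and 2 of 33 Smc3-WT mature cells. In Smc3-cKO library 1 the 0 UMIs allow a level of up to 52.6 CPM. Of the 83 UMIs of both Smc3-WT libraries, 77 were in mature cells with more cDC1 than cDC2 markers.

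Among the signalling genes, Socs2 had 263 and 205 CPM in Smc3-cKO mature cells and 324 and 499 CPM in Smc3-WT mature cells. The groups did not overlap, and the log2 difference was -0.87 (SE 0.42, edgeR adjusted p 0.565). Il4i1 had 351 and 505 CPM in Smc3-cKO mature cells and 297 and 512 CPM in Smc3-WT mature cells. Smc3-WT held both the lowest and the highest library, and the log2 difference was 0.04 (SE 0.41, adjusted p 0.995), so that a difference of its error's size in either direction is not excluded by these 4 libraries.

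The cytoskeletal and channel genes overlapped between genotypes. Fscn1 had 789 and 355 CPM in Smc3-cKO mature cells and 593 and 805 CPM in Smc3-WT mature cells, a log2 difference of -0.35 (SE 0.44, edgeR adjusted p 0.869). Cacnb3 had 228 and 68.2 CPM in Smc3-cKO mature cells and 223 and 253 CPM in Smc3-WT mature cells, a log2 difference of -0.79 (SE 0.52, adjusted p 0.676). In both genes Smc3-cKO library 1 lay at the level of the Smc3-WT libraries and Smc3-cKO library 2 below them. Without Smc3-cKO library 2 the Fscn1 difference was 0.039, and without Smc3-cKO library 1 it was -1.10.

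Apol7c, with 351 and 1187 CPM in Smc3-cKO mature cells and 724 and 1404 CPM in Smc3-WT mature cells, overlapped too, and its log2 difference was -0.51 (SE 0.53, edgeR adjusted p 0.853). Its sign rested on single libraries, with -1.73 without Smc3-cKO library 2, 0.036 without Smc3-cKO library 1 and 0.0045 without Smc3-WT library 2. In Smc3-cKO library 2, 73 of its 87 UMIs came from the 4 mature cells with more cDC1 than cDC2 markers, where the level was 2294 CPM. The matching cells of Smc3-WT had 1285 and 2150 CPM, from 12 and 5 cells, and Smc3-cKO library 1 held no such cell. In mature cells with more cDC2 than cDC1 markers, Apol7c had 237 and 432 CPM in Smc3-cKO (12 and 7 cells). There Smc3-WT had 405 and 1291 CPM (33 and 27 cells), so these groups overlapped as well. Serpinb6b had 35.1 and 68.2 CPM in Smc3-cKO mature cells (2 and 5 UMIs) and 104 and 173 CPM in Smc3-WT mature cells (27 and 26 UMIs). The groups did not overlap, and the log2 difference was -1.38 (SE 0.62, adjusted p 0.520). Nudt17, below the filter, had 17.5 and 40.9 CPM in Smc3-cKO mature cells (1 and 3 UMIs) and 23.1 and 66.6 CPM in Smc3-WT mature cells (6 and 10 UMIs), which overlap.

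Over the mature gate, 7 of the 8 genes tested had a log2 difference below 0, with a median of -0.65, while 49.8% of the 2419 genes tested lay below 0 and their median was 0.00. Of the 8 genes, 4 were lower without overlap, against 21.8% of all genes. The same limit on the choice of the genes applies here. No gene of the 8 passed the edgeR threshold, against 1.07% of all genes, and DESeq2 called 0 of the 8. An unadjusted edgeR p below 0.05 was found for 2 of the 8, against 228 of all 2419 genes.

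**Figure D3:**
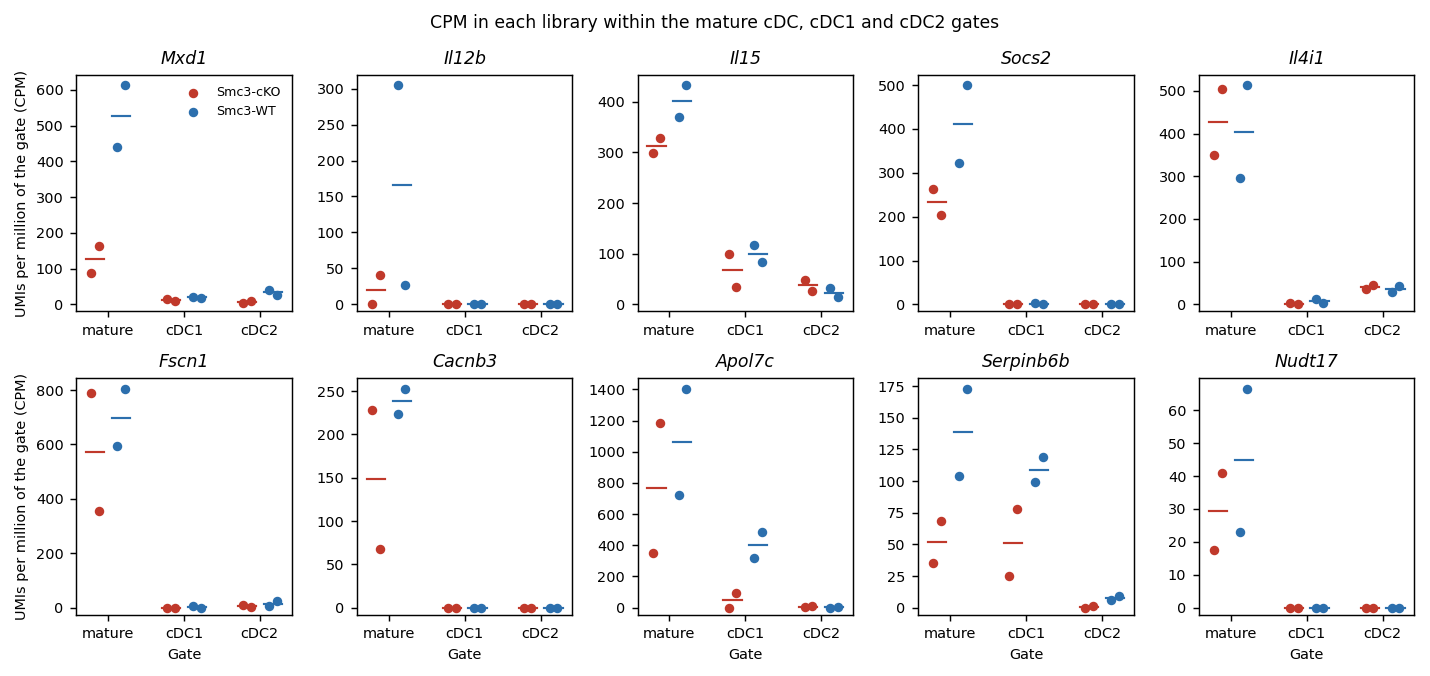
CPM of each gene in mature cDC, cDC1 and cDC2, with 1 point per library, a bar at the mean of 2 libraries and Smc3-cKO left of Smc3-WT. Mxd1 lies at 87.7 and 164 CPM in Smc3-cKO mature cDC and at 439 and 612 CPM in Smc3-WT mature cDC, and Apol7c in cDC1 at 0 and 95.4 CPM in Smc3-cKO and at 319 and 486 CPM in Smc3-WT.

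In cDC1 outside the mature gate, the largest difference lay in Apol7c. It had 0 and 95.4 CPM in Smc3-cKO cDC1 (0 and 11 UMIs), against 319 and 486 CPM in Smc3-WT cDC1 (74 and 135 UMIs). Summed over libraries this was 11 UMIs, or 27.7 CPM, in Smc3-cKO and 209 UMIs, or 410 CPM, in Smc3-WT. The groups did not overlap, as for 2 of the 3 genes tested, Apol7c and Serpinb6b, against 15.2% of the 4669 genes tested. The Apol7c log2 difference was -3.64 (SE 0.82), and its edgeR adjusted p of 0.125 missed the threshold. It was below 0 in all 16 alternatives, between -9.79 and -2.21, with adjusted p-values between 7.37e-12 and 1; without Smc3-cKO library 1 it was -2.21 (adjusted p 0.664), and without Smc3-cKO library 2 it was -9.79 (9.17e-07), a fitted value against a library at 0 and no bound. In Leiden clusters the Apol7c difference was -2.68 (adjusted p 0.773), and without the cluster of low UMIs it was -3.72 (0.700). None of the 3 genes passed in edgeR, against 0.193% of all genes, and DESeq2 called 0 of the 3. An unadjusted edgeR p below 0.05 was found for 2 of the 3, against 188 of all 4669 genes.

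Apol7c UMIs occurred in 0 of 33 and 3 of 15 Smc3-cKO cDC1 and in 23 of 42 and 31 of 52 Smc3-WT cDC1. The exact 95% intervals of these shares are 0 to 10.6% and 4.33 to 48.1% in Smc3-cKO. In Smc3-WT the shares are 54.8% (38.7 to 70.2%) and 59.6% (45.1 to 73.0%). The Smc3-cKO cDC1 were the deeper cells, with median UMIs of 9048 and 8476, against 4991 and 4247 in Smc3-WT. Thinned to 1500 UMIs, the shares were 0% and 14.3% in Smc3-cKO and 27% and 41.5% in Smc3-WT. In thinned B cells, which had 0.139% and 0.145% in Smc3-cKO and 1.44% and 0.598% in Smc3-WT, the same order held at a far lower level. Beside this, the mature markers summed to 490 and 494 CPM in Smc3-cKO cDC1 and to 962 and 540 CPM in Smc3-WT cDC1, and the B cell markers to 323 and 312 CPM in Smc3-cKO cDC1 and 729 and 371 CPM in Smc3-WT cDC1. Their part in the result was not tested.

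Serpinb6b had 24.8 and 78.0 CPM in Smc3-cKO cDC1 and 99.2 and 119 CPM in Smc3-WT cDC1, with a log2 difference of -1.38 (SE 0.55, edgeR adjusted p 0.9997). Il15 had 99.4 and 34.7 CPM in Smc3-cKO cDC1 and 116 and 82.9 CPM in Smc3-WT cDC1, which overlap. Cacnb3, Nudt17 and Il12b had no UMI in any cDC1 or cDC2, so their genotype values come from the mature gate alone.

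In cDC2 the gene with separated groups was Mxd1, 1 of the 3 tested, against 20.8% of the 6968 genes tested. It had 5.42 and 9.80 CPM in Smc3-cKO cDC2 (2 and 7 UMIs) and 41.1 and 25.9 CPM in Smc3-WT cDC2 (13 and 17 UMIs), a log2 difference of -1.96 (SE 0.60, edgeR adjusted p 0.299). The mature markers summed to 802 and 1164 CPM in Smc3-cKO cDC2 and to 1665 and 1663 CPM in Smc3-WT cDC2. The 9 classical monocyte markers summed to 910 and 768 CPM in Smc3-cKO cDC2 and to 433 and 368 CPM in Smc3-WT cDC2. The part of both lists in the cDC2 differences was not tested. Il15 had 48.8 and 26.6 CPM in Smc3-cKO cDC2 and 31.6 and 13.7 CPM in Smc3-WT cDC2, a log2 difference of 0.78 (SE 0.57, adjusted p 0.767). Il4i1 had 35.2 and 46.2 CPM in Smc3-cKO cDC2 and 28.4 and 42.7 CPM in Smc3-WT cDC2, a log2 difference of 0.15 (SE 0.44, adjusted p 0.948). The groups of both overlapped. None of the 3 genes passed in edgeR, against 0.488% of all genes, and DESeq2 called 0 of the 3. An unadjusted edgeR p below 0.05 was found for 1 of the 3, against 609 of all 6968 genes.

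Taking cDC1 and cDC2 together as non-mature cDC, Apol7c had 19 UMIs in Smc3-cKO, 12.8 CPM, against 213 UMIs in Smc3-WT, 144 CPM. The log2 difference was -3.55 (SE 0.55, edgeR adjusted p 0.108), and 6 of 16 alternatives brought the adjusted p below 0.05, DESeq2 among them (2.72e-05). Serpinb6b had a log2 difference of -1.96 (SE 0.41, adjusted p 0.209) and Mxd1 one of -1.59 (SE 0.48, adjusted p 0.490). These 3 of the 5 genes tested were lower without overlap, against 18.9% of the 8036 genes tested. Il15 (-0.08, SE 0.51) and Il4i1 (0.14, SE 0.46) lay near 0. cDC1 were 33 of 87 and 15 of 140 non-mature cells in Smc3-cKO, and 42 of 110 and 52 of 183 in Smc3-WT. In cDC2, Apol7c had 8 UMIs in Smc3-cKO and 4 in Smc3-WT, and Serpinb6b had 1 and 8. The non-mature sums of both genes thus also depend on the share of cDC1, whose part in the differences was not tested. No gene of the 8036 passed in edgeR (0%), with 537 at an unadjusted p below 0.05, and DESeq2 called 43.

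Whether a genotype difference itself differed between gates was tested with a term for genotype by gate and the library as a block. For Apol7c the log2 difference was higher by 2.96 in mature cDC than in non-mature cDC (SE 0.53, edgeR adjusted p 4.07e-05), 1 of the 7 genes that could be fitted, where 0.373% of 7229 genes were called. The direction held in the alternatives run, and the call was lost without Smc3-WT library 1 (2.60, adjusted p 0.0552), with mitochondrial UMIs of at most 5% (2.95, 0.0784) and with equal numbers of cells (2.09, 0.484). Non-mature levels of Apol7c also depend on the share of cDC1 given above, and the part of that share was not tested. Mxd1 gave -0.74 (SE 0.72, adjusted p 0.957) and Fscn1 1.05 (SE 0.76, adjusted p 0.934), so no difference between gates was shown for them. Between cDC1 and cDC2, Apol7c gave -3.93 (SE 1.05, adjusted p 0.0551), where 0.626% of 6235 genes were called. The cDC2 side rests on 8 Apol7c UMIs in Smc3-cKO and 4 in Smc3-WT, below the count filter in cDC2 alone. None of the 4 genes that could be fitted passed in edgeR. Of these 4, Apol7c and Il15 had an unadjusted p below 0.05, as did 573 of all 6235 genes.

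**Figure D4:**
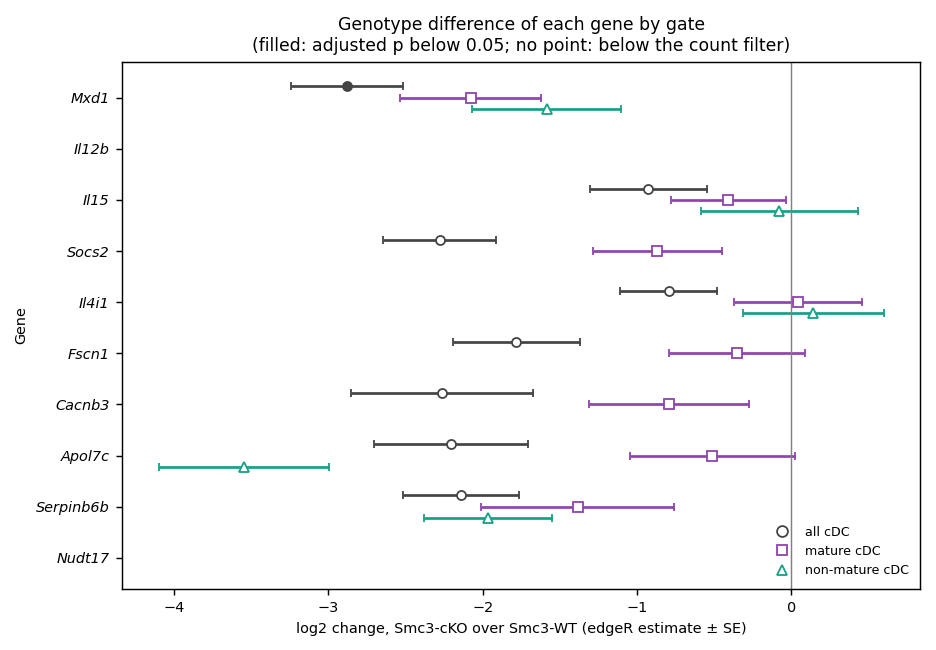
Log2 difference of Smc3-cKO over Smc3-WT (edgeR estimate with its standard error as bars) for each gene in all gated cDC, mature cDC and non-mature cDC; filled points have an adjusted p below 0.05 and genes below the count filter have no point. Mxd1 lies below 0 in all 3 gates, at -2.88, -2.08 and -1.59, and Apol7c lies at -3.55 in non-mature cDC and at -0.51 in mature cDC.

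Genes of the same pathways were read from 11 lists, chosen with earlier results of these data known and holding 123 genes beside the 10 above. Several of them (Ccr7, Ccl22, Ccl17, Ccl5, Cd200, Cd40, Il15ra, Relb, Traf1 and Birc2) also served as markers of the mature gate, so their levels are tied to the gates. Over all gated cDC, 80 of the 123 were tested and 1 passed the edgeR threshold, with a median log2 difference of -0.28, and 55 of the 80 were below 0 against 50.1% of all genes. In mature cDC, 1 of 49 passed, with a median of -0.16, and 27 were below 0. These counts and medians describe lists that were not chosen independently of the data.

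The costimulation and presentation list had a median log2 difference of -0.94 in all gated cDC, with 11 of 11 genes below 0, and of 0.46 in mature cDC, with 4 of 9 below 0. No gene of it passed in edgeR in either, and DESeq2 called 0 in both. An unadjusted edgeR p below 0.05 was found for 7 and 1 of its genes. Over all genes tested in these 2 gates the counts were 756 of 8418 and 228 of 2419. Its largest differences were in Cd200 (-2.35, edgeR adjusted p 0.154) and in H2-M2 (-1.87, adjusted p 0.130), an unusual class I molecule, both over all gated cDC. The chemotaxis list had medians of -0.75 in all gated cDC and -0.25 in mature cDC, where Ccr7 had -1.65 over all gated cDC (adjusted p 0.266) and Ccl5, a chemokine, -2.14 in cDC2 (adjusted p 0.186). The NF-kB list had medians of -0.23 and -0.21 in the same 2 gates, and its largest differences were in Traf1 (-1.25 in all gated cDC) and Bcl3 (1.24 in non-mature cDC). Neither list had a call in edgeR or DESeq2. In all gated cDC and mature cDC, 5 of 9 and 1 of 8 chemotaxis genes had an unadjusted edgeR p below 0.05. For the NF-kB genes this was 3 of 13 and 0 of 11, beside the counts over all genes given above.

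The partners of single genes gave few calls. In the calcium channel list Cacnb2, another beta subunit, rose in Smc3-cKO mature cells, with 12 and 25 UMIs, against 4 and 0 UMIs in Smc3-WT mature cells. The log2 difference was 4.69 (SE 0.72, edgeR adjusted p 0.0211), where 0.331% of genes were called higher, and the call was lost in 4 of 15 alternatives: without Smc3-cKO library 1 (adjusted p 0.417), without Smc3-cKO library 2 (0.138), with equal numbers of cells (0.257) and in Leiden clusters (0.0650). Cacna1e, a pore-forming subunit, fell in Smc3-cKO cDC1, with 19 and 0 UMIs, against 257 and 212 UMIs in Smc3-WT cDC1 (log2 difference -4.52, SE 0.68, edgeR adjusted p 0.00485), a call lost in 5 of 16 alternatives. It was lost by DESeq2 (adjusted p 1), without Smc3-cKO library 2 (0.0510) and under 3 other choices of cells, with edgeR adjusted p-values between 0.0638 and 0.160 for Cacna1e. Cacna1e also fell in Smc3-cKO cDC2, with 7 and 2 UMIs against 63 and 76 UMIs in Smc3-WT cDC2 (-4.09, SE 0.62, adjusted p 0.0367, where 0.416% of genes were called lower), a call lost in 3 of 16 alternatives, with adjusted p-values between 0.0566 and 0.0874.

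In the actin list Actn1, an actin cross-linker, fell in Smc3-cKO over all gated cDC, with 17 and 26 UMIs, against 142 and 108 UMIs in Smc3-WT. Its log2 difference was -2.44 (SE 0.36, edgeR adjusted p 0.0488), and the call was lost in 7 of 16 alternatives. These were without Smc3-cKO library 1 (0.233), without Smc3-cKO library 2 (0.147) and 5 other choices of cells, with adjusted p-values between 0.0518 and 0.194. Around Mxd1, no gene of the MAX network passed in edgeR or DESeq2. The largest differences were 1.32 for Mxi1 in cDC2 (edgeR adjusted p 0.570) and 0.97 for Mxd4 in cDC1 (edgeR adjusted p 0.9997). An unadjusted edgeR p below 0.05 was found for 1 of 6 genes in cDC2 and 1 of 9 in non-mature cDC. Over all genes tested the counts were 609 of 6968 and 537 of 8036. Serpinb9, the granzyme B inhibitor, had a log2 difference of -2.71 in non-mature cDC (SE 0.55, adjusted p 0.209), with 2 and 6 UMIs in Smc3-cKO and 22 and 28 UMIs in Smc3-WT. Serpinb8 had 0.83 in all gated cDC (adjusted p 0.890). Apol10b, the 1 other apolipoprotein L gene tested, had -1.84 in all gated cDC (SE 0.60, adjusted p 0.338). In the IL-12 and IL-15 system Il15ra, the receptor chain that presents IL-15, had -1.58 in all gated cDC (adjusted p 0.428) and Jak2, a cytokine receptor kinase, -1.09 (adjusted p 0.276). Socs6 had 0.94 in cDC2 (adjusted p 0.645), and Kynu, kynureninase, had 0.47 in mature cDC (adjusted p 0.760).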

How the data were processed

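The 4 single-cell libraries hold UMI counts per gene and barcode in the matrices that the authors deposited, with no barcode under 500 UMIs, made with Cell Ranger 7.0.0 per the file headers and on mm10 per the submitters' processing notes, which also name deepTools and Juicer without a role. A barcode was used when it held at least 200 genes and when mitochondrial UMIs made up at most 10% of its total. Scrublet doublets (scanpy 1.11.5) were removed; it marked 1.03 to 6.41% of cells per library. Gates were set on marker UMIs per 10000 UMIs. A mature cDC needed a rate of 40 and 5 of the 20 mature markers. It also needed a rate of 10 for 10 pan-cDC markers, the genes of MHC class II presentation being left out. The marker lists, the pathway lists and the 10 genes were chosen with earlier results of these data known, and the gate limits after the cells had been seen.

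Raw counts were summed per library and gate and tested with edgeR 4.0.16 (quasi-likelihood, TMM scaling, filterByExpr, 2 libraries against 2, Benjamini-Hochberg adjustment over all genes tested, threshold 0.05). CPM in the text are unscaled. A floor is 3 counts, and intervals are Clopper-Pearson. On simulated counts, changes of 3 on the log2 scale were recovered in 86% of cases in all gated cDC and 81% in mature cDC, and changes of 1.5 in 19% and 21%. The simulation gave every gene the same fixed dispersion, not one estimated from these libraries, so it does not give the recovery in the real counts. Pathway genes were named when called, else the 2 largest differences per list. Alternatives covered DESeq2 1.42.0, scaling, filtering, a replicate block, left-out libraries, and other cells. Replicate numbers pair nothing in the labels. Replicate libraries of a genotype differed beyond sampling noise (chi-square over degrees of freedom 4.74 in Smc3-cKO and 14.0 in Smc3-WT). Promoters came from RefSeq, GRCm38.p6, as did chromosome positions. No column of per-sample values was left unused in these files.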

Additional observations from a re-analysis of the deposited data

Results flagged for a closer look

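The genotype difference of Apol7c differed between mature and non-mature cDC in a test that some alternatives did not pass. Its log2 difference of Smc3-cKO over Smc3-WT was higher by 2.96 in mature cDC (SE 0.53, edgeR adjusted p 4.07e-05), by the test of genotype by gate with the library as a block. The call was lost without Smc3-WT library 1 (adjusted p 0.0552), with mitochondrial UMIs of at most 5% (0.0784) and with equal numbers of cells (0.484), and the direction held. The levels behind it were 351 and 1187 CPM in Smc3-cKO mature cDC and 724 and 1404 CPM in Smc3-WT mature cDC, beside 12.8 CPM in pooled Smc3-cKO non-mature cDC and 144 CPM in pooled Smc3-WT non-mature cDC. In Smc3-cKO library 2, 73 of the 87 mature UMIs came from 4 cells, which had more cDC1 than cDC2 markers. Mature cells with more cDC2 markers had 237 and 432 CPM in Smc3-cKO and 405 and 1291 CPM in Smc3-WT. The non-mature levels also depend on the share of cDC1, which differed between libraries. The part of these shares in the result was not tested.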

How the results depend on the processing

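Over the 8 of the 10 genes with enough counts for a test (all but Il12b and Nudt17), 353 of 419 alternative values kept direction and side of the threshold, 37 passed it newly, 7 lost a call and 22 changed sign.

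Counts of genes past an adjusted p of 0.05 moved with the processing, and the cause was not tested. For all gated cDC (19) they were 88 by DESeq2, 41 with RLE scaling, 32 with library totals, 350 with no filter, 29 with doublets kept, 7 with a stricter gate, 0 with the low lineage gate, 0 without the low-UMI cluster and 0 to 346 with a library left out. For mature cDC (26) they were 15 by DESeq2, 72 with no filter, 7 at 5% mitochondrial UMIs, 14 with the stricter gate, 2 with equal numbers of cells, 0 in Leiden clusters, 14 with the low lineage gate, 14 without the low-UMI cluster and 0 to 41 with a library left out. For cDC1 (9) they were 30 with no filter, 0 in clusters, 0 without the low-UMI cluster and 11 to 103 with a library left out. For cDC2 (34) they were 54 by DESeq2, 196 with no filter, 16 in clusters, 14 with the low lineage gate and 81 to 770 with a library left out. For non-mature cDC (0) they were 43 by DESeq2, 200 with no filter, 5 with doublets kept, 25 at 5% mitochondrial UMIs, 24 with equal cells, 8 in clusters and 0 to 191 with a library left out.

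For genotype by gate, mature against non-mature (27), counts were 7 by DESeq2, 1 at 5% mitochondrial UMIs, 15 with the stricter gate, 0 with equal cells, 12 with the low lineage gate, 15 without the low-UMI cluster and 5 to 50 with a library left out. Apol7c there was 2.95 at 5% mitochondrial UMIs, 2.09 with equal cells and 2.60 to 3.53 with a library left out. For cDC1 against cDC2 (39), counts were 10 by DESeq2, 22 with no filter, 4 at 5% mitochondrial UMIs, 14 with the stricter gate, 6 with equal cells, 16 in clusters, 21 with the low lineage gate, 14 without the low-UMI cluster and 12 to 100 with a library left out; Apol7c was -10.72 to -3.25, the lowest against a library at 0. At fixed class weights, 5 genes were non-overlapping with the low lineage gate and 5 to 8 with a library left out. Leaving out a library can raise this count but cannot lower it.

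With a replicate block, all gated cDC gave 163 genes, mature cDC 40, cDC1 37, cDC2 1 and non-mature cDC 33, and Mxd1 in mature cDC had an adjusted p of 0.00998. Same-numbered libraries deviated together weakly (correlation 0.07 to 0.22), with 2 pairs only, and the labels tie no number to a shared animal or batch, so the libraries were not taken as paired.

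Signs changed for small differences. Il4i1 was 0.34 with equal cells in all gated cDC. In mature cDC it was -0.20 with no filter, -0.047 with equal cells, -0.03 in clusters, -0.13 with the low lineage gate, -0.016 without the low-UMI cluster and -0.35 to 0.44 with a library left out. In cDC2 it was -0.43 at 5% mitochondrial UMIs, -0.017 with the low lineage gate and -0.10 to 0.59 with a library left out. In non-mature cDC it was -0.38 at 5% mitochondrial UMIs and -0.39 to 0.50 with a library left out. Il15 in non-mature cDC was 0.48 at 5% mitochondrial UMIs, 0.31 in clusters and -0.88 to 0.46 with a library left out. With a library left out, Fscn1 in mature cDC was -1.10 to 0.039, Apol7c there -1.73 to 0.036 and Serpinb8 in all gated cDC -0.64 to 1.60.

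The low lineage gate and the leaving out of the low-UMI cluster were chosen after seeing the data. A planned gate with no B, T or NK marker UMI was not run, since it left 1 mature cDC and 0 cDC1 in a library. Depth is limiting: 12 to 14 mature cells per Smc3-cKO library put the 3-count floor at 52.6 and 40.9 CPM.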
